A study of Mus musculus with 4 samples.

Results

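The genes described here encode proteins of the mitochondrial ribosome, taken as every row of the table whose symbol is Mrpl or Mrps followed by a number and at most a letter suffix. The rule gave 77 genes of 21445, 48 with an Mrpl and 29 with an Mrps symbol, and all 77 passed the filter on low values (KL25 or KL averaging 1 FPKM or more, where FPKM is the level corrected for gene length and library depth). RNA was sequenced from cells labelled CD45- taken from lung tumours of mice 10 weeks after they received, through the nose, Ad-Cre, an adenovirus that carries Cre recombinase. The KL group carried Lkb1fl/fl, a floxed allele of Lkb1, which encodes a tumour suppressor kinase. The KL25 group carried Lkb1fl/fl with Usp25-/-, so both groups shared the tumour model and KL25 also lacked the deubiquitinase Usp25. Each group had 2 libraries from 2 mice. The labels do not write Usp25-/- as a conditional allele, unlike Lkb1fl/fl, and they give neither the age of the mice nor the promoter of the Cre virus.

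Mitochondria keep a ribosome of their own, which translates the few mRNAs encoded by mitochondrial DNA, all of them for subunits of the oxidative phosphorylation complexes. Its rRNAs are transcribed inside the organelle, whereas all of its proteins are encoded in the nucleus, made in the cytosol and imported. The small subunit reads the mRNA and the large subunit forms the peptide bond. Some of the proteins have counterparts in the bacterial ribosome, and others were added in the mitochondrial lineage.

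The 4 libraries had relative depths (size factors) of 0.853 and 0.823 in KL25 replicates 1 and 2 and of 1.30 and 1.09 in KL replicates 1 and 2. The mean normalized count, the read count per gene after depth correction, summed to 10577718 per library. Usp25 was at 2.65 and 1.71 in KL25 against 38.5 and 16.6 FPKM in KL, in the direction of the labels. KL replicate 1 stood apart: across genes its Pearson correlation with each other library in log2(FPKM + 1) was 0.933 to 0.939, against 0.964 to 0.982 among the other 3. Genes with a value above 0 in a single library numbered 2498 for KL replicate 1 and 147 for KL replicate 2. In KL25 they numbered 451 for replicate 1 and 162 for replicate 2. The defining marker of the label CD45- was not absent: Ptprc, which encodes CD45, was at 43.3 to 123 FPKM, and none of 15 leukocyte marker genes was at 0 in any library. In such bulk samples fewer cells of a type and less RNA per cell cannot be told apart.

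Promoter sequences are shown for members whose 2 KL25 libraries did not overlap the 2 KL libraries, because their values carry the comparison that follows. Binding motifs of NRF1, of ETS factors such as GABP and of YY1, which are known regulators of nuclear genes for mitochondrial proteins, were searched on both strands. The printed windows are the 250 bases before the RefSeq start site (GRCm38.p6) of the 4 genes with the largest positive fold changes among those with a window and a motif in these bases, and of Mrpl30, the only member lower in both KL25 libraries. Capitals mark the matches: an ETS-type match in Mrpl51 and in Mrpl3, a YY1-type match on the opposite strand in Mrpl36, overlapping NRF1-type matches on both strands in Mrpl9, and NRF1-type matches at 2 places in Mrpl30. The GENCODE models of Mrpl51, Mrpl36, Mrpl3 and Mrpl9 start upstream of the RefSeq start, so all or part of these windows lies within those models.
Mrpl51, chr6:125191950-125192199, plus strand: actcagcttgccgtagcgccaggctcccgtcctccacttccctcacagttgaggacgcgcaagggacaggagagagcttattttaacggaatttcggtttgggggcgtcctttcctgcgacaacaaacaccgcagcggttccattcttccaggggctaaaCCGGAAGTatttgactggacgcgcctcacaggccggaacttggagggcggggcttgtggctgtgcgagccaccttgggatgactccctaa
Mrpl36, chr13:73330759-73331008, plus strand: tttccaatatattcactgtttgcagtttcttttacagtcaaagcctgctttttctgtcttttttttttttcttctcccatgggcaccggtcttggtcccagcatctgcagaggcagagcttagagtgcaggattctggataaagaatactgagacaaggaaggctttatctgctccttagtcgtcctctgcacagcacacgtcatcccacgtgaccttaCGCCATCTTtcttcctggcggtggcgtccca
Mrpl3, chr9:105053018-105053267, plus strand: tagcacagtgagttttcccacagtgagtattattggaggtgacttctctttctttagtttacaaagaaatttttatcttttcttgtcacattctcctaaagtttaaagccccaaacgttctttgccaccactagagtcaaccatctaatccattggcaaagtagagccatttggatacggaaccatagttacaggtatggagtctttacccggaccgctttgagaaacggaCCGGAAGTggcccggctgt
Mrpl9, chr3:94443086-94443335, plus strand: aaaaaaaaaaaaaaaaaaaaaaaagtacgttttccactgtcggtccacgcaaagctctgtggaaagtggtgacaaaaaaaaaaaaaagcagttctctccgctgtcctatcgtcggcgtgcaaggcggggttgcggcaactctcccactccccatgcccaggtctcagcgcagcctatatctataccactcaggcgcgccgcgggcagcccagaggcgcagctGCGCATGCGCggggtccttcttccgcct
Mrpl30, chr1:37890227-37890476, plus strand: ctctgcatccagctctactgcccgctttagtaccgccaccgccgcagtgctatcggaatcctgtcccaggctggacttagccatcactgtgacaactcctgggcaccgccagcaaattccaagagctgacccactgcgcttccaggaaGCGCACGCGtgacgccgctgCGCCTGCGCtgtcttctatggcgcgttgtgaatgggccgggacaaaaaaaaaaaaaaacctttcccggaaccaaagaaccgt

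The members differed widely in RNA level. The mean over the 4 libraries had a median of 22.2 FPKM over the 77 members, 7 of them reached a mean of 50 FPKM and 13 had a mean under 10 FPKM. The highest member, Mrpl33, lay 60.7-fold above the lowest, Mrpl19. Levels between genes also depend on the length assumed for each. Per FPKM and kb of annotated exon, 56 members had a mean normalized count within 2-fold of the median of all genes, 20 had less and 1 (Mrpl41) more. Mrpl33, at 0.716 against 7.64 for the median gene, was among those with less, so its rank rests on the length used by the authors. Without a stated strand setting, members that overlap a protein-coding gene on the other strand, such as Mrpl33 (Rbks), Mrpl24 (Rrnad1), Mrpl47 (Actl6a and Ndufb5), Mrpl9 (Oaz3) and Mrps25 (Nr2c2), have uncertain levels.

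Mrpl33, the counterpart of bacterial protein L33, was at 199 FPKM in the first and 146 FPKM in the second KL25 replicate, against 97.9 and 124 FPKM in the KL replicates in the same order. Mrpl52, a large subunit protein without a bacterial counterpart, was at 138 and 87.0 in KL25 against 84.9 and 72.4 FPKM in KL. In both genes the 2 KL25 values lay above the 2 KL values, although for Mrpl52 the gap between KL25 replicate 2 and KL replicate 1 was small. Mrps21, the counterpart of bacterial S21 in the small subunit, was at 81.4 and 80.7 in KL25 against 40.4 and 81.5 FPKM in KL. Here 3 libraries had nearly the same level and KL replicate 1 alone was low. Mrpl20, an L20 counterpart, was at 73.8 and 52.0 in KL25 against 59.0 and 71.0 FPKM in KL, with overlapping groups.

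At the low end, Mrpl19 was at 2.46 and 2.50 in KL25 against 2.04 and 2.35 FPKM in KL, a narrow range. Mrps2 was at 4.61 and 5.70 in KL25 against 2.72 and 6.32 FPKM in KL. Mrpl35 was at 6.79 and 5.11 in KL25 against 3.76 and 5.77 FPKM in KL. All 3 have bacterial counterparts, and in each the lowest value was that of KL replicate 1. Mrpl1, whose bacterial counterpart forms the L1 stalk, was at 6.12 and 5.80 in KL25 against 6.04 and 4.79 FPKM in KL, with its lowest value in KL replicate 2.

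**Figure D1:**
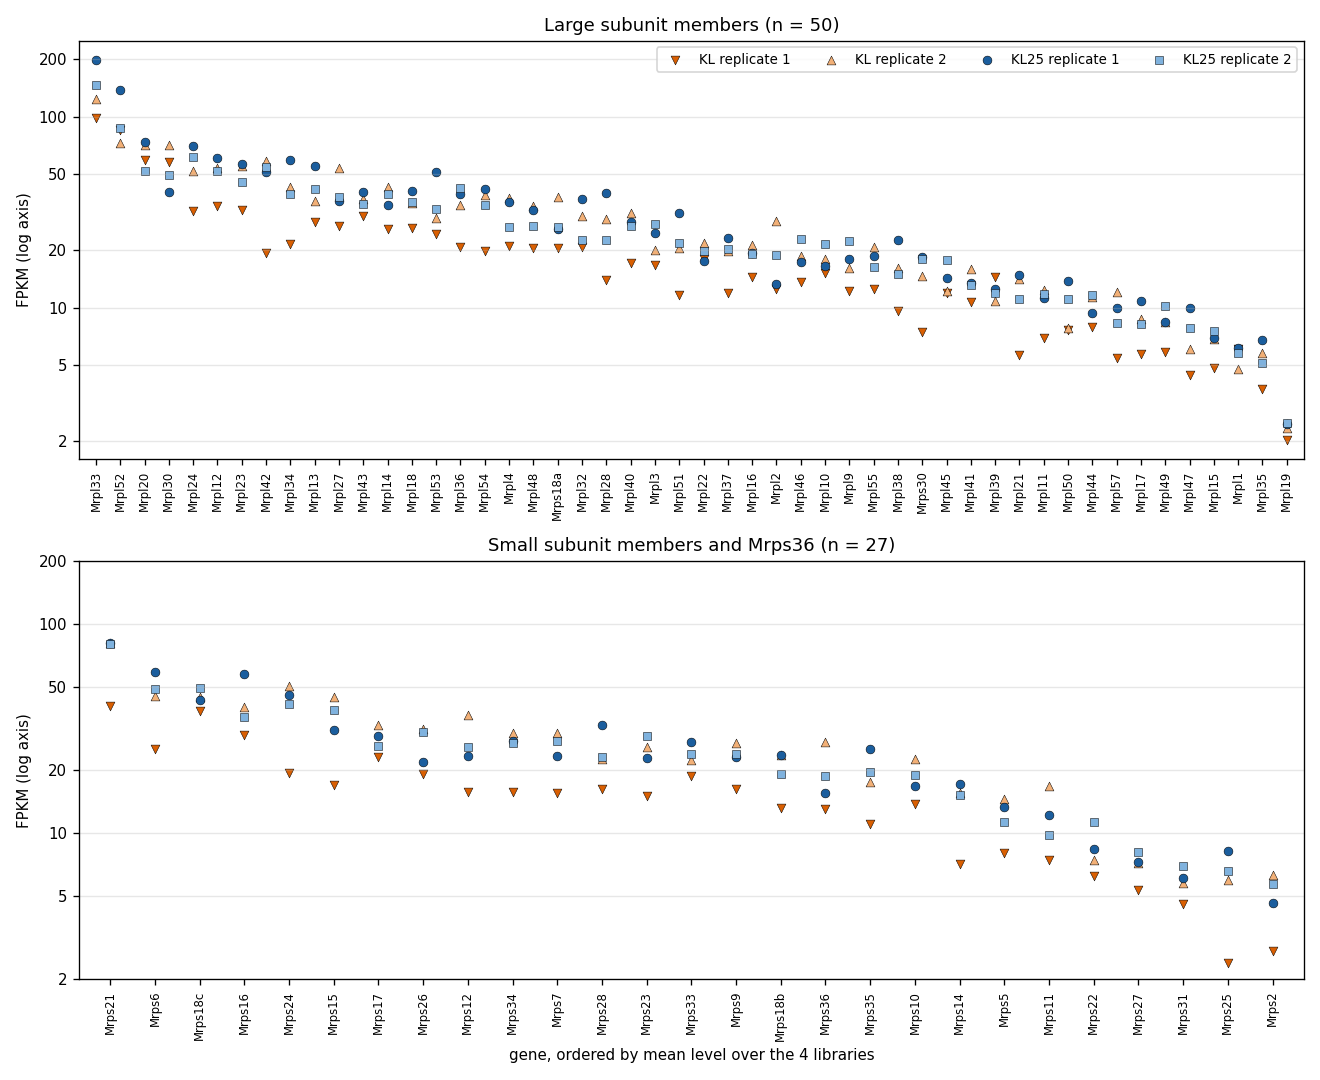
Level of each of the 77 members in each library, in FPKM on a log axis; the upper panel holds the 50 large subunit members and the lower panel the 26 small subunit members and Mrps36, each ordered by mean level. The downward triangles of KL replicate 1 are the lowest of the 4 values in 71 of 77 genes, against 38.6% of all genes tested.

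The comparison of KL25 with KL asked how loss of Usp25 altered these transcripts. None of the 77 members passed the threshold (limma with Benjamini-Hochberg adjustment over 12476 genes, adjusted p at least 0.942 for every member named here), nor did any gene in this fit (0% of genes tested). No member had an unadjusted p below 0.05 in either direction, where 2.16% of all genes did so with a higher and 1.07% with a lower level in KL25. Of the 77 members, 0 had an unadjusted p below 0.05 in the authors' deposited table, against 4.09% of its rows. After adjustment 18 genes passed in the authors' deposited table (0.122% of rows with an adjusted p), Usp25 among them and no member. In limma Usp25 itself did not pass, with a log2 fold change of -3.07 (adjusted p = 0.942). Not passing in this fit therefore does not show that a gene was unchanged. With 2 against 2 libraries, the smallest p that a two-sided exact permutation test can give for a gene is 0.33.

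Most members had somewhat higher values in KL25. The log2 fold change on the log2(FPKM + 1) scale was positive for 67 of 77 members, against 53.1% of all genes tested, and its median was 0.29, against 0.030 for all genes. It ranged from -0.51 to 0.78. The lower KL25 value exceeded the higher KL value for 26 members (33.8%, against 19.1% of all genes) and the reverse held for 1 member (against 15.0% of all genes). The log2 fold change in the authors' deposited table was above 0 for 64 of 77 members (median 0.27).

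These counts rested on KL replicate 1. That library held the lowest of the 4 values for 71 of 77 members (92.2%), against 38.6% of all genes tested. Its level was a median of 0.634 times the mean of the other 3 libraries, from 0.344 for Mrps25 to 1.24 for Mrpl39, and at most 0.5 times that mean for 13 members. KL replicate 2 was close to the KL25 libraries: the median member differed from KL25 replicate 1 by -0.038 and from KL25 replicate 2 by 0.086 on the log2 scale. KL replicate 1 differed from KL replicate 2 by a median of -0.68 and was the lower of the pair in 74 of 77 members. The SD within a group was a median of 34.2% of the mean in KL and 13.1% in KL25.

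Without KL replicate 1, the log2 fold change was above 0 for 40 of 77 members, against 48.8% of all genes in that fit, and the median was 0.027. In that fit KL25 lay above KL replicate 2 for 28 members (against 35.4% of all genes) and below it for 30 (against 37.7%). Without KL replicate 2 the count of positive members was 74 of 77 (against 53.9%), the median was 0.61, 72 members had both KL25 values above KL replicate 1 (against 43.8%), and 17 reached an unadjusted p below 0.05, all higher in KL25 (against 9.43%), with 0 passing after adjustment. Without KL25 replicate 2, 41 members had no overlap in that direction (against 32.8%).

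Of the sums over marker lists, that of the neutrophil list set KL replicate 1 apart. The summed level of 10 neutrophil genes was 41895 FPKM there and 762 to 2184 FPKM in the other 3 libraries, and none of the 10 was at 0 in any library. By the median gene of the leukocyte list KL replicate 1 was also highest, at 277 FPKM against 152 to 195 FPKM elsewhere, and Ptprc was at 123 FPKM there against 43.3 to 51.0 FPKM. The 15 leukocyte genes together reached 4718 and 5384 in KL25 against 5897 and 7267 FPKM in KL, and the 16 epithelial genes 4643 and 1789 in KL25 against 1261 and 1056 FPKM in KL. The 10 endothelial genes summed to 106 to 318 FPKM and the 10 fibroblast genes to 49.4 to 133 FPKM over the 4 libraries, with KL replicate 1 within the range of the others for both and the fibroblast gene Tcf21 at 0 in 1 KL25 library. Across the 77 members, the log2 difference of KL replicate 1 from the other libraries was set beside exon length and GC content. Its Pearson correlation was 0.037 with exon length on a log scale and -0.21 with GC content. Over the 12002 genes tested with an annotated exon length, the correlations were 0.11 and -0.23. The rank (Spearman) correlation with exon length was 0.037 over the members and 0.28 over those genes. With GC content it was -0.27 over the members and -0.285 over those genes. The median exon length was 2260 bases for the members, against 4170 bases for those genes. These values are a description across genes of the same libraries. Dividing the libraries by median-of-ratios factors left 64 members positive (against 50.1% of all genes) and a median of 0.26. The part of these measures in the low level of KL replicate 1 was not tested.

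**Figure D2:**
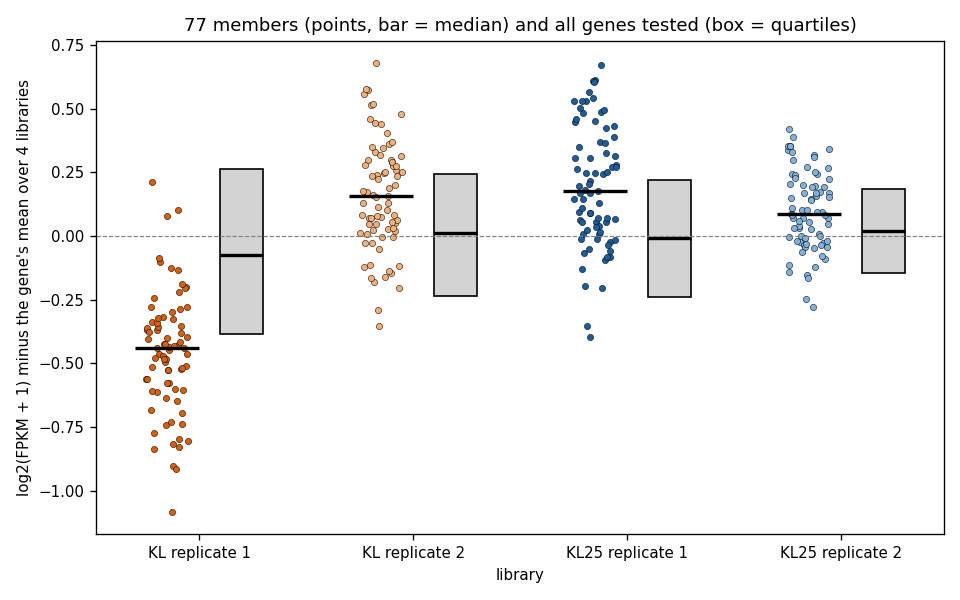
Deviation of each member from its own mean over the 4 libraries, in log2(FPKM + 1), by library (points, with the median as a bar), beside the quartiles of all 12476 genes tested (boxes). The members' median was -0.44 in KL replicate 1 and 0.086 to 0.18 in the other 3 libraries, while the median of all genes stayed between -0.075 and 0.021.

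**Figure D3:**
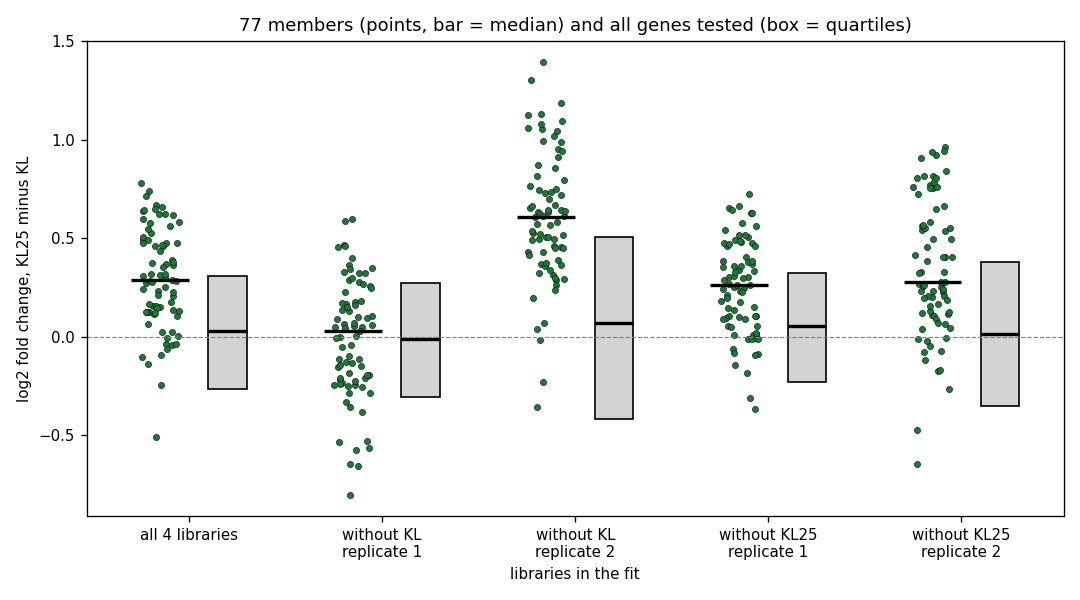
Log2 fold change of the 77 members (points, with the median as a bar) and quartiles of all genes tested (boxes), with all 4 libraries and without each library in turn. Leaving out KL replicate 1 put the members' median at 0.027, and leaving out KL replicate 2 put it at 0.61.

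The large subunit holds 50 of the members by position in the ribosome, Mrps18a and Mrps30 among them despite their symbols. Of 30 members with bacterial counterparts 25 were above 0 in log2 fold change (median 0.28), 10 had no overlap with KL25 higher, and 1 (Mrpl30) with KL25 lower. Of 20 members without bacterial counterparts 18 were positive (median 0.36) and 8 had no overlap, all with KL25 higher. Of all genes 53.1% were positive, 19.1% had no overlap with KL25 higher and 15.0% with KL25 lower. Without KL replicate 1 the counts of positive members were 17 of 30 and 12 of 20, against 48.8% of all genes in that fit. None passed the test.

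Mrpl24, whose bacterial counterpart L24 starts the assembly of the large subunit, was at 69.8 and 61.4 in KL25 against 31.8 and 52.1 FPKM in KL. The means were 65.6 ± 5.92 and 42.0 ± 14.4 FPKM (SD, n = 2 each), and the log2 fold change was 0.67 (SE 0.36), or 0.32 without KL replicate 1. The KL25 values were close together and the KL values were not, with KL replicate 1 lowest. Mrpl47, the counterpart of bacterial L29, was at 9.91 and 7.78 in KL25 against 4.41 and 6.09 FPKM in KL (log2 fold change 0.66, SE 0.31). Mrpl33, given above, had a log2 fold change of 0.63 (SE 0.35) and Mrpl52 of 0.48 (SE 0.36). Without KL replicate 1 the log2 fold change was 0.47 for Mrpl47, 0.46 for Mrpl33 and 0.59 for Mrpl52.

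Mrpl51, a large subunit protein without a bacterial counterpart, was at 31.2 and 21.7 in KL25 against 11.7 and 20.5 FPKM in KL. Its lower KL25 value lay only just above KL replicate 2, and the log2 fold change was 0.71 (SE 0.39), or 0.33 without KL replicate 1. Its GENCODE gene model spans positions 125191801 to 125196269 of chromosome 6 in GRCm38.

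In some members the difference did not rest on KL replicate 1 alone. Mrpl50, Mrpl3 and Mrpl45, named after their values were seen, had similar levels in the 2 KL libraries. Mrpl50, without a bacterial counterpart, was at 13.7 and 11.1 in KL25 against 7.60 and 7.81 FPKM in KL, with a KL25 mean 1.61 times that of KL and a log2 fold change of 0.62 (SE 0.28). Its unadjusted p of 0.0753 in limma was the lowest of the 77 members, and its log2 fold change was 0.60 without KL replicate 1, but it did not pass (adjusted p = 0.942). Mrpl3, the counterpart of L3, was at 24.7 and 27.4 in KL25 against 16.7 and 19.98 FPKM in KL. Mrpl45 was at 14.3 and 17.7 in KL25 against 11.9 and 12.3 FPKM in KL.

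Mrpl30, the counterpart of bacterial L30, had its groups in the opposite order. It was at 40.5 and 49.5 in KL25 against 57.6 and 71.1 FPKM in KL, so that each KL25 value was lower than each KL value. The mean of KL was 1.43 times that of KL25, and the log2 fold change was -0.51 (SE 0.31), which did not pass. It was negative without each of the 4 libraries in turn, from -0.66 to -0.36. Its GENCODE gene model spans positions 37890477 to 37898535 of chromosome 1 in GRCm38.

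In 6 members the lowest library was not KL replicate 1, and all 6 encode large subunit proteins. They are Mrpl30, Mrpl1, Mrpl20, Mrpl52, Mrpl22 and Mrpl39, the last 2 named after their values were seen. Mrpl39 was the only member with its highest value in KL replicate 1, where it reached 14.5 FPKM, against 10.8 FPKM in the other KL library and 12.4 and 12.0 FPKM for KL25. Mrpl22, the counterpart of bacterial L22 at the peptide tunnel, was at 17.4 and 19.7 in KL25 against 18.0 and 21.8 FPKM in KL.

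Mrpl42, which has no bacterial counterpart and was also named after its values were seen, was at 19.4 FPKM in KL replicate 1, against 58.5 FPKM in the other KL library and 51.1 and 54.2 FPKM for KL25. The mean of the other 3 libraries was 2.81-fold above KL replicate 1. Its log2 fold change of 0.62 (SE 0.55) became -0.15 without that library.

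In the small subunit 24 of 26 members were positive with all 4 libraries (median 0.30) and 11 of 26 without KL replicate 1 (median -0.070). KL replicate 1 was the lowest library for all 26, against 38.6% of all genes tested. Of 16 members with bacterial counterparts 14 were positive (median 0.22) and 2 had no overlap. Of 10 without bacterial counterparts all 10 were positive (median 0.31) and 6 had no overlap, with KL25 higher, where all genes gave 53.1% and 19.1%. Without KL replicate 1, 5 of the 16 (median -0.22) and 6 of the 10 (median 0.12) were positive, against 48.8% of all genes in that fit. None passed, and a difference between these lists was not tested.

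Mrps25, without a bacterial counterpart, had the largest positive log2 fold change of the 77, at 0.78 (SE 0.43), which was 0.26 without KL replicate 1. It was at 8.21 and 6.58 in KL25 against 2.38 and 5.98 FPKM in KL, so the gap to KL replicate 2 was small beside that to KL replicate 1. Mrps35, another protein without a bacterial counterpart, was at 25.3 and 19.6 in KL25 against 11.01 and 17.6 FPKM in KL. Mrps6, the counterpart of bacterial S6, was at 59.0 and 48.9 in KL25 against 25.3 and 45.1 FPKM in KL. The log2 fold changes were 0.64 (SE 0.35) for Mrps35 and 0.65 (SE 0.38) for Mrps6, and without KL replicate 1 they were 0.32 and 0.25.

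The summed level of large subunit members was 1675 and 1423 in KL25 against 1014 and 1484 FPKM in KL, and that of small subunit members 693 and 665 in KL25 against 407 and 711 FPKM in KL. Large over small was 2.42 and 2.14 in KL25 and 2.49 and 2.09 in KL. This ratio overlapped between the groups and was higher in replicate 1 of each. All members together held 0.422% and 0.401% of the summed FPKM in KL25 and 0.269% and 0.408% in KL.

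Mrps18a, Mrps18b and Mrps18c are homologous genes derived from bacterial S18. In the mammalian ribosome Mrps18c takes the place of S18, Mrps18b lies elsewhere in the small subunit and Mrps18a in the large subunit. The counts above place Mrps18a and Mrps18b, which do not take the place of S18, among the members without bacterial counterparts. Mrps18c was the most abundant and steadiest of the 3, at 43.5 and 49.6 in KL25 against 38.5 and 45.0 FPKM in KL. Mrps18b was at 23.5 and 19.1 in KL25 against 13.3 and 23.7 FPKM in KL. Mrps18a was at 25.7 and 26.3 FPKM in KL25, and its KL values of 20.6 and 38.0 FPKM lay on either side of them. The groups overlapped for all 3, with log2 fold changes of -0.10 for Mrps18a, 0.24 for Mrps18b and 0.16 for Mrps18c (SE 0.38, 0.38 and 0.29).

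Mrpl37 and Mrps30 are a second homologous pair, both in the large subunit. Mrps30 was at 18.4 and 17.9 in KL25 against 7.42 and 14.6 FPKM in KL, with a log2 fold change of 0.74 (SE 0.38). Mrpl37 was at 23.2 and 20.4 in KL25 against 11.9 and 19.7 FPKM in KL, with a log2 fold change of 0.47 (SE 0.35). Both had no overlap and the same order of libraries, with KL replicate 1 lowest and KL25 replicate 1 highest. Without KL replicate 1 the log2 fold change was 0.30 for Mrps30 and 0.13 for Mrpl37.

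Mrps36 carries a member's symbol but has since been described as a component of the 2-oxoglutarate dehydrogenase complex. It was at 15.6 and 18.7 in KL25 against 13.0 and 27.3 FPKM in KL (log2 fold change -0.14, SE 0.42), with the KL values on either side of the KL25 values.

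Subunits of the same ribosome with other symbols were Dap3, Ptcd3, Chchd1, Aurkaip1, Gadd45gip1 and Ict1, of which 5 of 6 were above 0 in log2 fold change (median 0.50) and 4 had no overlap, against 53.1% and 19.1% of all genes. Without KL replicate 1 the positive ones were 4 of 6, with a median of 0.21, against 48.8% of all genes positive in that fit. Dap3, a GTP-binding small subunit protein, was at 12.7 and 11.6 in KL25 against 7.43 and 8.94 FPKM in KL (log2 fold change 0.52, SE 0.28). Ict1, a peptidyl-tRNA hydrolase built into the large subunit, was at 42.5 and 39.6 in KL25 against 20.2 and 30.0 FPKM in KL (log2 fold change 0.71, SE 0.32). The pentatricopeptide protein gene Ptcd3 was nearly level, at 8.08 and 7.95 in KL25 against 7.49 and 7.44 FPKM in KL. The small subunit gene Chchd1 was at 57.5 and 40.4 in KL25 against 29.0 and 38.5 FPKM in KL. The small subunit gene Aurkaip1 was at 66.8 and 57.0 in KL25 against 47.6 and 94.0 FPKM in KL, and the large subunit gene Gadd45gip1 at 17.3 and 7.21 in KL25 against 5.04 and 11.8 FPKM in KL, both with overlapping groups. None passed.

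In the further lists of the pathway no gene passed, and the counts are a description beside the 53.1% of all genes that were positive and the 38.6% with their lowest value in KL replicate 1. Of 22 assembly and rRNA modification factors 15 were positive (median log2 fold change 0.17), of 14 translation factors 10 (median 0.33), of 18 mitochondrial tRNA synthetase and amidotransferase genes that passed the filter 15 (median 0.23), of 9 genes of mitochondrial DNA transcription and replication 6 (median 0.076), and of 8 nuclear regulators 5 (median 0.12). KL replicate 1 was the lowest library for 14 of 22, 7 of 14, 12 of 18, 5 of 9 and 2 of 8 of them. Without it the medians were -0.0075, 0.079, 0.089, 0.037 and 0.18. Ears2, Pars2, Mterf1a and Ppargc1a fell under the filter. The 13 mRNAs encoded by mitochondrial DNA were looked up by their mt- symbols, found no row under them and were not analysed.

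In 3 of the pathway genes with the lowest unadjusted p of their list, the libraries of a group differed by less than the gap between the groups; for Lrpprc the margin was small. Tfam, which packages mitochondrial DNA and starts its transcription, was at 6.99 and 7.24 in KL25 against 4.21 and 4.38 FPKM in KL. Its log2 fold change of 0.62 (SE 0.27) had an unadjusted p of 0.0676 and did not pass in limma (adjusted p = 0.942). Mettl15, an rRNA methyltransferase of the small subunit, was at 2.78 and 2.79 in KL25 against 1.15 and 1.39 FPKM in KL (log2 fold change 0.74, SE 0.31). In the authors' deposited test the unadjusted p was 0.00656 for Tfam and 0.0112 for Mettl15. Neither passed there after adjustment (adjusted p = 0.653 and 0.801). Lrpprc, which stabilises mitochondrial mRNAs, was at 6.70 and 8.32 in KL25 against 5.04 and 4.89 FPKM in KL (log2 fold change 0.51, SE 0.28).

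For the others named by the same rule, KL replicate 1 was lowest in Tsfm, Trmt2b, Aars2, Ssbp1 and Myc and highest in Nrf1. Tsfm, the exchange factor of mitochondrial elongation factor Tu, was at 11.6 and 11.6 in KL25 against 6.13 and 9.39 FPKM in KL. The rRNA methyltransferase gene Trmt2b was at 8.28 and 6.44 in KL25 against 3.66 and 5.28 FPKM in KL. Aars2, the mitochondrial alanyl-tRNA synthetase, was at 2.21 and 2.73 in KL25 against 0.936 and 1.82 FPKM in KL. In these 3 genes both KL25 values lay above both KL values. Ssbp1, the single-stranded DNA-binding protein of mitochondria, was at 11.1 and 8.66 in KL25 against 6.74 and 9.55 FPKM in KL, with overlap. Myc, a transcription factor that raises ribosome production, was at 14.3 and 12.9 in KL25 against 6.04 and 11.4 FPKM in KL. Nrf1, the factor whose motif was searched above, was at 7.78 and 7.67 in KL25 against 10.9 and 7.57 FPKM in KL.

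**Figure D4:**
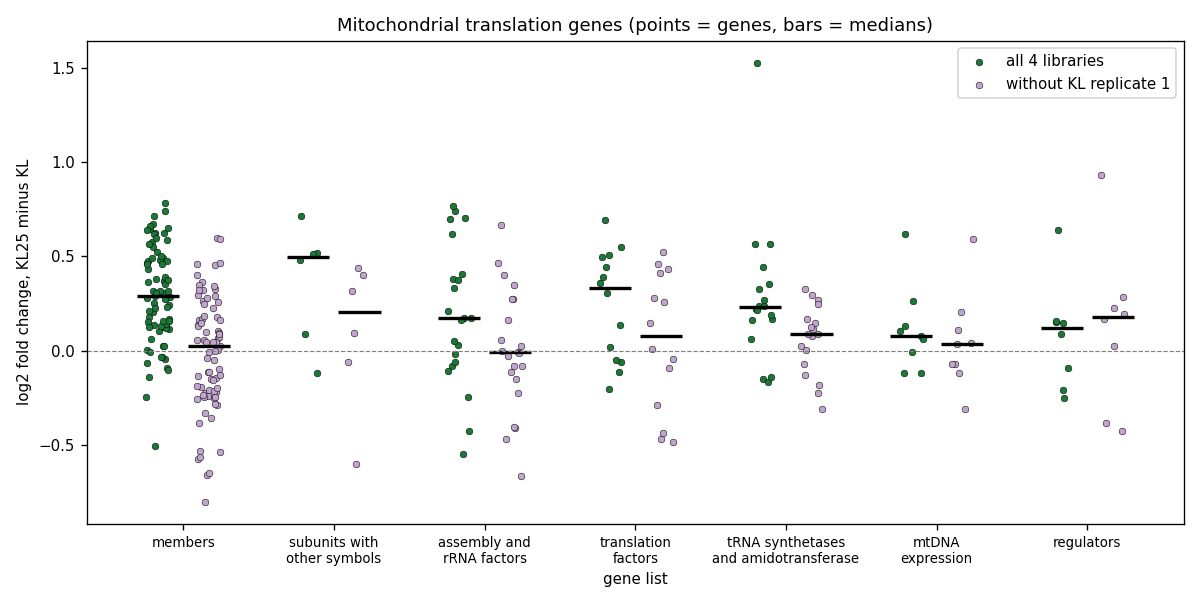
Log2 fold change of single genes (points) and medians (bars) for the members and 6 further lists of mitochondrial translation genes that passed the level filter, with all 4 libraries (dark) and without KL replicate 1 (light). The members' median was 0.29 with all libraries and 0.027 without KL replicate 1. The highest point, in the tRNA synthetase list, is Lars2 at 1.53, which was 0.15 without KL replicate 1. Whether the Lars2 reads came from the synthetase mRNA was not tested.

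The members' promoters held the searched motifs at a higher share than those of all genes, a description without a test. RefSeq windows of 250 bases before to 50 bases after the start were found for 68 of the 77; Mrpl54, Mrpl15, Mrpl13, Mrpl4, Mrps28, Mrps34, Mrpl19, Mrpl38 and Mrps35 had none. The NRF1-type motif GCGCANGCG was in the windows of 16 members (23.5%), against 15.0% of the 9269 genes with a window that passed the level filter and 7.03% of all 27025 genes with one. The ETS-type motif CCGGAAGT was in 12 (17.6%), against 9.02% and 4.31%. The YY1-type motif AANATGGCG was in 10 (14.7%), against 5.94% and 2.76%, and its letters can include a start codon where the window reaches into the transcript. The YY1-type motif ends in the same GCG with which the NRF1-type motif begins, so these matches can overlap in general. The members that held the YY1-type motif were other genes than those that held the NRF1-type motif. With shorter cores the shares of members were 45.6%, 57.4% and 14.7%, against 33.3%, 31.0% and 8.06% of genes that passed the filter.

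Medians with and without a motif are given as a description, without a test. The 35 members with at least 1 of the 3 motifs had a median log2 fold change of 0.27, and the 33 without had 0.29. The median was 0.17 for the 16 with the NRF1-type motif and 0.31 for the 52 without it. For the ETS-type motif it was 0.295 with (12 members) and 0.28 without, and for the YY1-type motif 0.37 with (10 members) and 0.27 without. Mrpl30, with 2 NRF1-type matches in the sequence shown above, lay below 0, and Mrpl9, with an overlapping pair of matches, was at 18.0 and 22.3 in KL25 against 12.2 and 16.2 FPKM in KL. Mrpl36, the counterpart of bacterial L36, was at 39.5 and 42.1 in KL25 against 20.7 and 34.6 FPKM in KL (log2 fold change 0.58, SE 0.35), without overlap, and the log2 fold change was 0.23 without KL replicate 1. A match of letters does not show that a factor binds there.

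**Figure D5:**
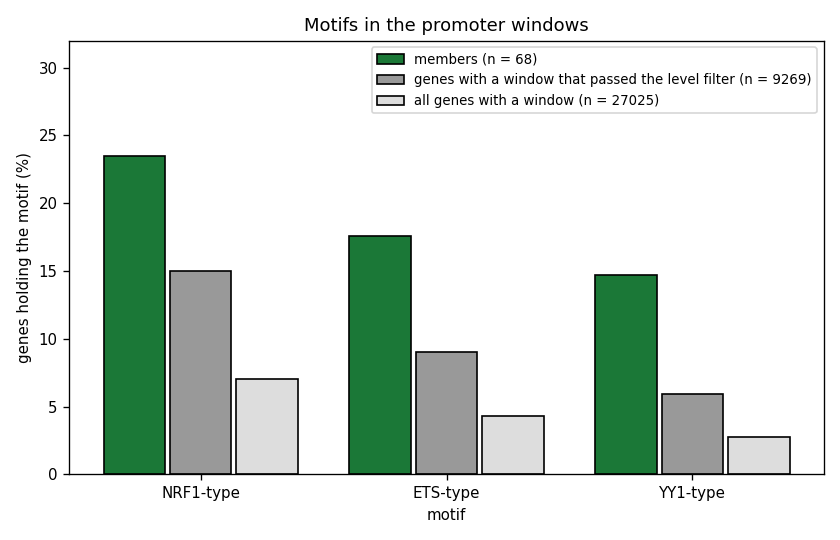
Share of genes, in percent, whose promoter window held each motif, for the 68 members with a window, for genes with a window that passed the level filter, and for all genes with a window. For the NRF1-type motif the shares were 23.5%, 15.0% and 7.03%.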

How the data were processed

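RNA was sequenced from 4 libraries, 2 KL25 and 2 KL, made with a strand-specific kit for poly(A) RNA, per the labels. Per the labels' protocols, cutadapt trimmed the reads, GRCm38 was the genome and HTSeq counted reads per gene. GRCm39 is named beside GRCm38 in the submitters' processing notes. The aligner, versions and strand setting were not given in the sources used here, so genes that overlap a member on the other strand are uncertain. The authors deposited 1 column of values per library, taken here to be FPKM from their range because no unit is named in the header. Per the file headers, the authors also deposited, for each gene, p-values, a test score, the signal as a mean normalized count, and the log2 fold change and its error. A second table repeats the first, and another holds only a title.

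Size factors were read from the deposited mean normalized counts of genes seen in 1 library. The 25 rows whose gene names had become dates (0.117% of summed FPKM) were left out. Genes averaging 1 FPKM or more in KL25 or in KL were tested on log2(FPKM + 1) in limma 3.58.1 under R 4.3.3, moderated with a variance trend. Benjamini-Hochberg adjusted p-values below 0.05 passed. The added 1 shrinks the fold change of a low gene. The fit was also run on simulated data, the outcome of which is not given here. With 2 mice per group, p-values rest on the spread between 2 libraries. FPKM give no counts per gene, so no counting interval is given; the members' mean normalized count was 54.7 to 743, and the size factors were 0.823 to 1.30.

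Part of the genotype that both groups share is not reported here. The members and lists were chosen with earlier results of these data known. Named were the 6 members with the highest and 4 with the lowest level, up to 8 per direction without overlap of libraries by log2 fold change, any with an unadjusted p below 0.05 here or in the deposited table, the homologous sets, the subunits with other symbols and the 2 genes with the lowest unadjusted p of each other list; Mrpl50, Mrpl3, Mrpl45, Mrpl39, Mrpl42, Mrpl22, Mrpl9, Mrpl41, Mrps11, Mrpl46 and Mrps36 were added after their values were seen, as were the neighbouring genes, Lars2 and Rn45s. Mrpl36 was named with its promoter. Positions and exon lengths are from GENCODE M21 (GRCm38), matched by symbol for all 77 members. Older symbols (Ict1, Ftsj2, Rnmtl1, Peo1) were matched through RefSeq synonyms. Also run were pseudocounts of 0.1 and 5, other filters and scalings, no variance trend, a replicate block, and fits without each library.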

Additional observations from a re-analysis of the deposited data

How the results depend on the processing

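With every setting that kept all 4 libraries, 64 to 67 members had a positive log2 fold change, against 44.1% to 54.6% of all genes. The members' median was 0.23 to 0.32. No overlap was seen with KL25 higher for 25 or 26 members, against 12.9% to 20.5% of all genes. It was seen with KL25 lower for 1 member, against 13% to 16.4% of all genes. In each of these settings 0 members and 0 genes passed. These settings were pseudocounts of 0.1 and 5, no filter, a filter at 5 FPKM (76 members), median-of-ratios and upper-quartile scaling, no variance trend and the replicate block. The scalings moved the median of all genes by less than 0.1. The 56 members whose count and FPKM matched by length gave 49 positive (against 53.1% of all genes) and a median of 0.30. This alternative was chosen after seeing the data. Adding the subunits with other symbols changed no call.

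Leaving out 1 library moved the counts of members: positive ones from 40 (without KL replicate 1) to 74 (without KL replicate 2), those without overlap and higher in KL25 from 28 to 72, those without overlap and lower from 2 to 30, those at an unadjusted p below 0.05 from 0 to 17, and the median from 0.027 to 0.61; 0 members and 0 genes passed in each. A group left with 1 library is assumed to vary like the other.

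Among 53 named genes followed through the fits without each library, 15 changed sign when a library was left out, and the cause was not tested. These genes do not cover all members. The count of positive members was 67 of 77 with all libraries (against 53.1% of all genes) and 40 without KL replicate 1 (against 48.8%). Over these fits the log2 fold change ranged, from lowest to highest, as Mrpl20 -0.31 to 0.19, Mrps21 -0.0065 to 0.99, Mrps2 -0.26 to 0.72, Mrpl1 -0.018 to 0.27, Mrps18a -0.53 to 0.32, Mrps18b -0.16 to 0.64, Mrpl39 -0.23 to 0.16, Mrpl42 -0.15 to 1.39, Mrps36 -0.65 to 0.37, Mrps11 -0.57 to 0.50, Mrpl22 -0.22 to 0.039, Ptprc -1.37 to 0.018, Aurkaip1 -0.60 to 0.37, Gadd45gip1 -0.10 to 1.06 and Nrf1 -0.44 to 0.026. In Gadd45gip1, Mrpl20 and Mrps11 leaving out a KL25 library also turned the sign; in the other 12 only leaving out a KL library did.

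The labels name no batch or pairing beyond the replicate numbers. Same-numbered deviations from the group means correlated at 0.15 over all genes tested and 0.021 over the members. With 2 libraries per group these values cannot show whether same-numbered libraries were paired. With the replicate block 67 members were positive (against 53.1% of all genes), the median was 0.29, and 0 members and 0 genes passed.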

Other observations

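Many members share a promoter region with a neighbour. Of the 77 members 18 (23.4%) had a protein-coding gene on the opposite strand starting within 1000 bases upstream, against 10.1% of all protein-coding genes tested, from GENCODE positions. Of the 15 partners that passed the level filter 9 were above 0 in log2 fold change (median 0.20), against 53.1% of all genes. Mrpl49 faces Fau, which encodes a cytosolic ribosomal protein fused to a ubiquitin-like protein, and Fau was at 1324 and 864 in KL25 against 659 and 769 FPKM in KL. Mrps12, the counterpart of bacterial S12, faces Sars2, the mitochondrial seryl-tRNA synthetase, at 2.76 and 3.10 in KL25 against 1.71 and 2.49 FPKM in KL. Mrpl41, with a log2 fold change of 0.026, faces Pnpla7 at a distance of 935 bases, whereas all other pairs lay within 207 bases. Pnpla7 was at 23.1 and 27.7 in KL25 against 47.0 and 41.6 FPKM in KL, and its unadjusted p of 0.0423 in limma did not pass. Mrps11 and Mrpl46 are both members and overlap at their starts on opposite strands of chromosome 7; Mrps11 was at 12.2 and 9.80 in KL25 against 7.43 and 16.8 FPKM in KL, and Mrpl46 at 17.4 and 22.9 in KL25 against 13.7 and 18.6 FPKM in KL.

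Lars2, the mitochondrial leucyl-tRNA synthetase, held the highest mean normalized count of the whole table, at 635924. It was at 13882 and 25473 in KL25 against 2504 and 17000 FPKM in KL, while the other 17 synthetase and amidotransferase genes that passed the filter summed to 77.1 to 106 FPKM per library. Rn45s, the precursor of cytosolic rRNA, was at 7362 and 10680 in KL25 against 2820 and 6643 FPKM in KL, and both genes had their lowest value in KL replicate 1. Both also had their highest value in KL25 replicate 2. Without KL replicate 1 the log2 fold change of Lars2 went from 1.53 to 0.15 and that of Rn45s from 1.03 to 0.42. Whether the reads assigned to Lars2 came from the synthetase mRNA was not tested, so its values may not give the level of that mRNA. Of the other 17 synthetase and amidotransferase genes 14 were positive with all 4 libraries (median 0.22).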
